A study of Mus musculus with 6 samples.

Results

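The core circadian clock genes were examined in neurospheres of adult mice, as a set of 10 genes (Per1, Per2, Per3, Cry1, Cry2, Clock, Nr1d1, Nr1d2, Dbp and Tef) among 19057 gene symbols with a probe on the array. Members were taken by gene symbol, which gave 20 of the 45281 probes, and 9 of the 10 genes had a probe above background on at least 3 arrays. The set was selected on earlier results from these same arrays, in which the difference of Per3 between genotypes was known, so that difference is given as a description with no test, and no other value below is independent evidence for the set.

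Neurospheres are floating clusters grown from neural stem and progenitor cells, here from the subventricular zone of mice aged 18 months and cultured with EGF and FGF. Total RNA was taken at 14 days in vitro and hybridised to 6 arrays of an Illumina mouse whole-genome beadchip. The wild-type (wt) group had 1 array of primary and 2 of secondary spheres, and the Wip1-transgenic (Wip1Tg) group had 2 arrays of primary and 1 of secondary spheres. Wip1 is the phosphatase encoded by Ppm1d, which dampens the p53, p38 and DNA damage responses. The sources used here do not give the promoter that drives the transgene, the strain, any pooling of animals or the hour of harvest. Since no label ties the arrays of a group to different animals or cultures, the p-values below cover only the spread among these arrays, which may be technical.

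The mammalian clock is a transcriptional feedback loop. CLOCK and its partner BMAL1 (the product of Arntl) activate genes through E-box elements, among them the Per and Cry genes, whose proteins then repress that activity. In a second loop the nuclear receptors REV-ERBα (Nr1d1) and REV-ERBβ (Nr1d2) repress Arntl and the ROR receptors activate it. DBP and TEF are transcription factors of the PAR bZIP family that are driven by the clock and act on D-box elements. In a population of cells sampled at a single time, the level of each transcript is an average over the phases of the cells, and fewer expressing cells and less RNA per cell cannot be told apart.

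The elements through which the members are known to act on one another were sought in RefSeq promoters (GRCm38.p6, 250 bases before to 50 bases after a transcription start). These were at hand for 9 of the 10 genes, all but Per2. The windows of Per3 and Cry2 are shown because these genes had the clearest differences between groups, and that of Per1 as an example with an E-box. Capitals mark a D-box (TTATGTAA or TTACGTAA) in Per3, an E-box (CACGTG) in Per1 and the related E-prime box (CACGTT, here read on the other strand as AACGTG) in Cry2. All sequences run 5′ to 3′ along the gene.
Per3 (chr4:151044616-151044915, minus strand): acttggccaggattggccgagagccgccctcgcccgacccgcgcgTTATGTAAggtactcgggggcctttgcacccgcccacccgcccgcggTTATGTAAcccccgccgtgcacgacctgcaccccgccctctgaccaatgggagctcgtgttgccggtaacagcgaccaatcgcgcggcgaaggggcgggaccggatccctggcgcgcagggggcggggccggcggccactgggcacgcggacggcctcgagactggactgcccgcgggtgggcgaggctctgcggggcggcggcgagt
Cry2 (chr2:92434020-92434319, minus strand): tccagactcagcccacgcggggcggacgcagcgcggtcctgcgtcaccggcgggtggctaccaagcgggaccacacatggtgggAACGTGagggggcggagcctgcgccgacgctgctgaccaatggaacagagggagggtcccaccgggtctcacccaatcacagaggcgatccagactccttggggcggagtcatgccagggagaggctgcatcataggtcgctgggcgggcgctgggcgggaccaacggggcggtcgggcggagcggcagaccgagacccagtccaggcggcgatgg
Per1 (chr11:69098699-69098998, plus strand): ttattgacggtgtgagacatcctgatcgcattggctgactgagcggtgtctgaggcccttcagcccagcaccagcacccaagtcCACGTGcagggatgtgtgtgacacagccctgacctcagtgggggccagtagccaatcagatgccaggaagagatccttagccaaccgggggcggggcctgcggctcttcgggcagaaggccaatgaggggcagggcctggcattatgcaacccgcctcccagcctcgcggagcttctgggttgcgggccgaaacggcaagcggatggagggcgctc

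Per3 had 2 D-boxes, from -205 to -198 and from -158 to -151 relative to the start, and no other member's window held one. Of 32851 promoter windows of this length in the table, 1.06% held a D-box on either strand and 0.0244% held at least 2. The E-box stood in 1 of 2 windows of Per1, in the window of Cry1 and in both windows of Tef, against 7.15% of all windows. The E-prime box stood in the windows of Cry1, Cry2 and Nr1d1, against 4.68%. The core site of the ROR and REV-ERB receptors (TAGGTCA, found in 2.61% of windows) and the cyclic AMP element (TGACGTCA, 1.79%) were in none of the members' windows, while its shorter form TGACG (20.8%) was in both windows of Per1 and in those of Cry1 and Cry2. No E-box, E-prime box or D-box lay in the windows of Clock, Nr1d2 or Dbp. A match describes these letters only and says nothing of binding in these cells.

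The arrays had raw medians of 150.88 to 168.44, and on each 38.92 to 41.3% of probes passed a detection p of 0.05, called above background here. Progenitor genes were present, with Nes, Sox2, Fabp7, Vim, Egfr and Olig2 above background on all 6 arrays, while none of 4 endothelial markers (Pecam1, Cldn5, Cdh5 and Kdr) had a kept probe. Of 6 microglial markers 3 were kept (Aif1, Csf1r and P2ry12), with a summed normalised intensity of 127 to 178, and Cx3cr1, Ptprc and Itgam were not. The labels call the mice gender matched, yet the 4 probes for Xist, which coats the silenced X, gave signal over background on 4 arrays (Wip1Tg primary 2 and the 3 secondary arrays) and on neither wt primary 1 nor Wip1Tg primary 1. The 2 Wip1Tg primary arrays are thus not repeats of the same RNA. Xist signal was also unbalanced between passages, so passage and Xist signal are partly confounded. Ppm1d was measured by 1 of its 4 probes and differed by 0.26 log2 between genotypes (SE 0.125, limma adjusted p = 0.539). The same probe differed by 0.69 between secondary and primary spheres (limma adjusted p = 0.00985). Whether that probe lies in the transgene is not known here.

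Before any normalisation the probes of the members fell into bright and silent ones. Of the 20 probes, 11 were above background on all 6 arrays, 1 (a second probe of Clock) on 3 arrays and 8 on none. The only probe of Cry1 was among the silent ones, with raw intensities of 129.88 to 152.25 and detection p-values of 0.448 to 0.849, so Cry1 has no measured level in these data. The probe of Dbp lay far above background, at 2225 to 6718. The probe of Per3 was dim, at 240.75 on wt primary 1, 237.01 and 211.54 on wt secondary 1 and 2, 180.56 and 177.09 on Wip1Tg primary 1 and 2, and 183.76 on Wip1Tg secondary 1. Its detection p stayed at or below 0.010 on every array, where the lowest intensity above background was 159.59 to 178.09. Already at this stage the 3 wt arrays stood above the 3 Wip1Tg arrays for Per3.

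**Figure D1:**
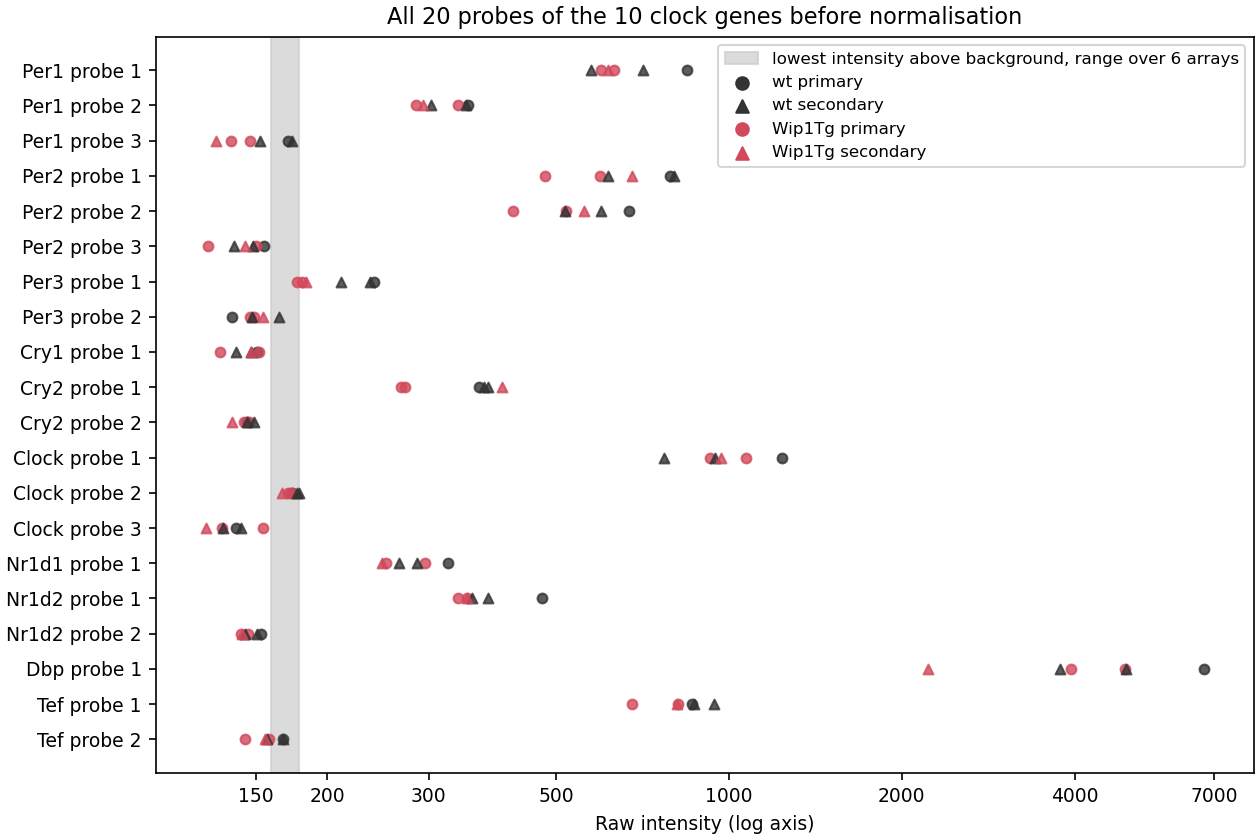
Raw intensity (horizontal, log axis) of each of the 20 probes of the 10 clock genes on 6 arrays, with circles for primary and triangles for secondary spheres, black for wt and red for Wip1Tg. Probes of a gene are numbered from bright to dim, the grey band spans the lowest intensity above background (159.59 to 178.09), and 8 probes, the single one of Cry1 among them, were above background on no array.

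Clock, the activating arm of the loop, was nearly level after quantile normalisation. On the normalised log2 scale Clock read 9.77 on the wt primary array and 9.69 and 9.91 on those of Wip1Tg, while the secondary arrays read 9.62 and 9.54 for wt and 9.83 for Wip1Tg. The groups overlapped for both factors. The difference between secondary and primary spheres was -0.079 log2 (95% interval -0.39 to 0.23, limma adjusted p = 0.677) and that between Wip1Tg and wt 0.14 (-0.17 to 0.45, limma adjusted p = 0.730), so changes of more than about 0.45 log2 in either direction lay outside both intervals.

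The 3 Per genes encode repressors of CLOCK and BMAL1. Per1, which also responds to acute signals through cyclic AMP, was by its brighter probe the steadiest of the members on the normalised scale. It stood at 9.12 on the wt primary array and 9.01 and 8.92 on those of Wip1Tg, while the secondary arrays read 9.13 and 9.02 for wt and 9.04 for Wip1Tg, a range of 0.21 log2 over the 6 arrays. Its passage difference was 0.012 (95% interval -0.27 to 0.29, limma adjusted p = 0.950). Its second probe was less steady, from 7.34 to 7.71 over the 6 arrays, and gave a passage difference of 0.13.

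Per2 was at 9.01 on the wt primary array and 8.91 and 8.48 on those of Wip1Tg, while the secondary arrays read 9.34 and 9.14 for wt and 9.22 for Wip1Tg. All 3 secondary arrays stood above all 3 primary arrays, but the 2 primary Wip1Tg arrays were themselves 0.43 log2 apart. The passage difference of Per2 was 0.38 (SE 0.166, 95% interval -0.019 to 0.78, limma adjusted p = 0.135), with 0.26 on its second bright probe. It was 0.046 with arrays scaled by their medians. The genotype difference of Per2 was -0.17 (95% interval -0.57 to 0.23, limma adjusted p = 0.755).

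Per3 was lower in Wip1Tg spheres of either passage. The wt arrays read 6.35 (primary) and 6.64 and 6.44 (secondary), and the Wip1Tg arrays 5.56 and 5.75 (primary) and 5.75 (secondary). The lowest wt array was thus 0.60 log2 above the highest Wip1Tg array, and the replicates of a group differed by 0.19 and 0.20. The fitted difference was -0.74 (n = 3 arrays per genotype), or 1.67-fold, with -0.70 within primary and -0.79 within secondary spheres. In the order of groups the 2 wt groups came first and the 2 Wip1Tg groups last, and the passages of a genotype differed by 0.19 and 0.099, no more than replicates did. The size of this difference moved with the processing. It was -0.90 with arrays scaled by their medians, -0.49 with a larger offset of 50 and -0.25 in the authors' deposited values, whose median of 161.57 lies within the range of the raw medians. The other probe of Per3 was above background on no array.

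Across passages Per3 differed by 0.15 (95% interval -0.16 to 0.45, limma adjusted p = 0.425). The interaction of genotype and passage was -0.092 (95% interval -0.73 to 0.55).

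**Figure D2:**
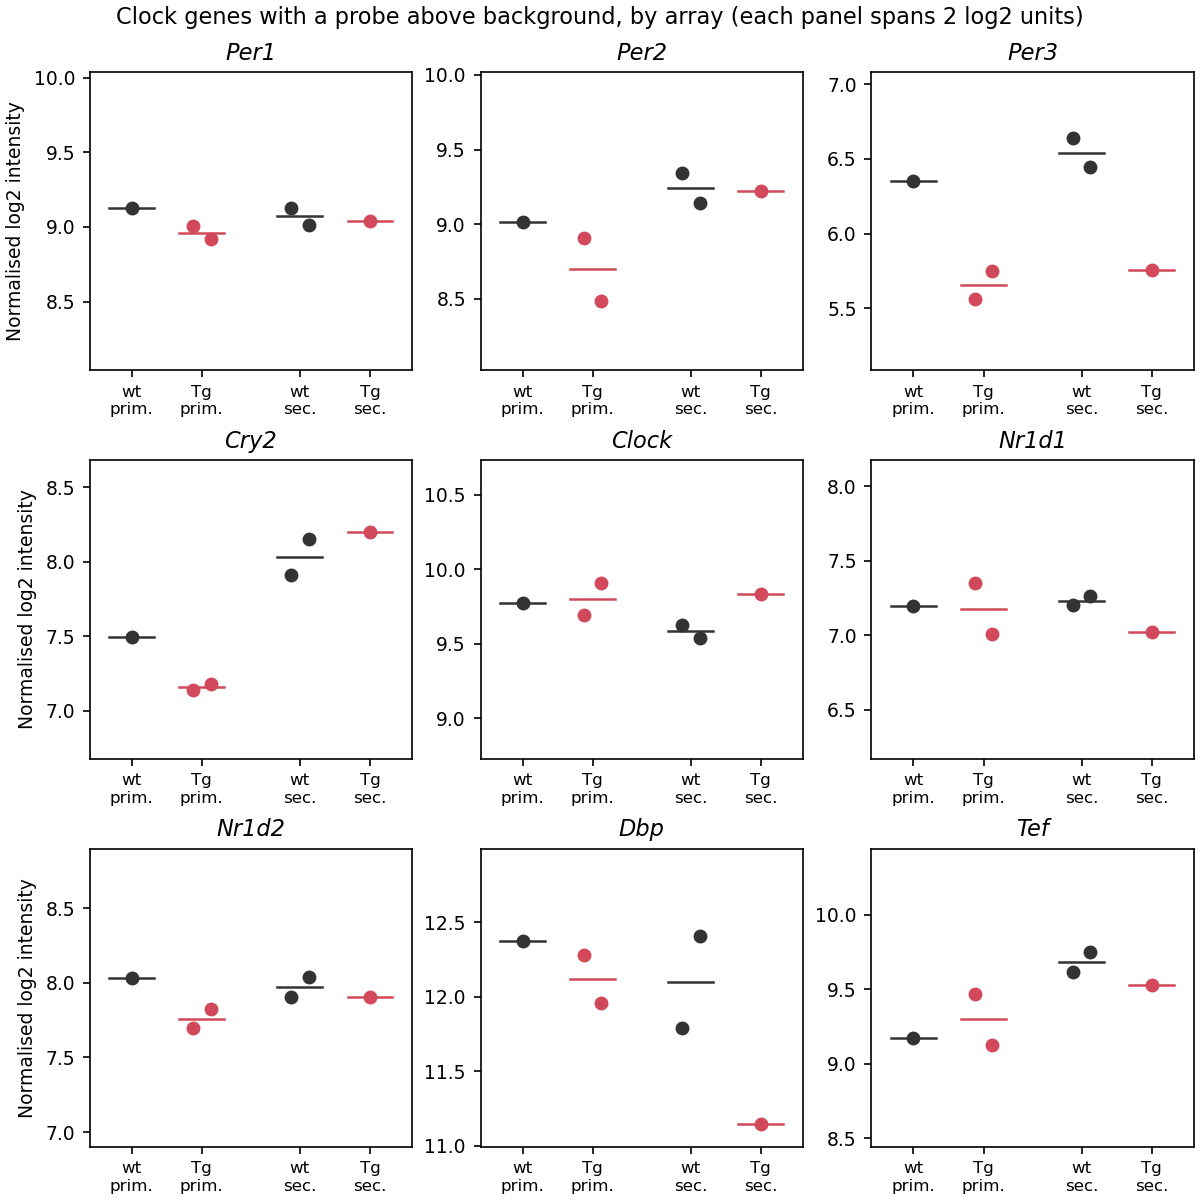
Normalised log2 intensity (vertical) of the 9 clock genes with a probe above background, in wt (black) and Wip1Tg (red, Tg) primary and secondary spheres. Points are arrays, bars are group means (the value itself where a group has 1 array), and every panel spans 2 log2 units. Per3 is lower in the 3 Wip1Tg arrays, Cry2 is higher in the 3 secondary arrays, and Dbp is lowest on Wip1Tg secondary 1 at 11.14.

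Cry2, a cryptochrome that completes the repressor complex with the PER proteins, was the only member that passed the threshold in either comparison. The primary arrays read 7.50 for wt and 7.14 and 7.18 for Wip1Tg, and the secondary arrays 7.91 and 8.15 for wt and 8.20 for Wip1Tg. Every secondary array was above every primary array. Cry2 rose 1.73-fold from primary to secondary spheres (0.79 log2, SE 0.157, 95% interval 0.41 to 1.16, n = 3 arrays per passage, limma adjusted p = 0.0139). The rise was 0.54 within wt and 1.04 within Wip1Tg spheres, and the difference between these had an adjusted p of 0.571 in limma's interaction term. Without Wip1Tg secondary 1 the rise was 0.54 and did not pass (limma adjusted p = 0.108). On the 4 arrays with Xist signal it was 1.02 (limma adjusted p = 0.0627). With arrays scaled by their medians it was 0.45 and did not pass (limma adjusted p = 0.112), and without eBayes moderation the limma adjusted p was 0.0885.

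Passing for passage was common on these arrays. Of 12755 features, 28.1% passed in either direction and 14.3% as higher in secondary spheres, against 1 of the 9 members, Cry2. All secondary arrays above all primary arrays was found for 3 of the 9 members, Per2, Cry2 and Tef, and for 25.0% of all features. The median passage difference of the members was 0.041, and that of all features 0.042. Marker genes of other states moved with passage as well. Of 8 astrocyte markers 4 rose (Aldoc, Slc1a2, Gjb6 and Slc7a10) and 1, Gfap, fell (-1.38). Slc7a10 was above background on the 3 secondary arrays only, so it was kept only through the group where it was higher. The summed normalised intensity of the 8 went from between 53118 and 60584 in primary to between 74144 and 88966 in secondary spheres. These sums were mostly Slc1a3, which differed by 0.21 (limma adjusted p = 0.201), and Aldoc, by 2.11. Of 4 measured proliferation genes 3 fell, with sums of 3480 to 5600 in primary and 1386 to 2917 in secondary spheres. All 3 kept ependymal markers fell, Foxj1 by 0.78, Tppp3 by 2.29 and Rsph1 by 0.84, and their sum went from between 537 and 921 to between 320 and 347. Of 6 stem and progenitor markers 1, Vim, fell (-0.90). Their sums, of 29159 to 34230 in primary and 18184 to 24356 in secondary spheres, were mostly Vim. Of the 6 differences 3 were positive (Fabp7, Egfr and Olig2) and 3 negative, with a median of -0.052. The part of any of these in the change of Cry2 was not tested.

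The REV-ERB receptors, which link the 2 loops, were nearly level after quantile normalisation. Nr1d1 was at 7.20 on the wt primary array and 7.35 and 7.01 on those of Wip1Tg, while the secondary arrays read 7.21 and 7.26 for wt and 7.02 for Wip1Tg. Its passage difference was -0.061 (95% interval -0.40 to 0.28, limma adjusted p = 0.776) and its genotype difference -0.11 (95% interval -0.45 to 0.22, limma adjusted p = 0.808). Nr1d2 was at 8.03 on the wt primary array and 7.69 and 7.83 on those of Wip1Tg, while the secondary arrays read 7.91 and 8.04 for wt and 7.90 for Wip1Tg. All 3 Wip1Tg arrays lay below the 3 wt arrays, the nearest pair only 0.0025 log2 apart, and the genotype difference of -0.17 (95% interval -0.47 to 0.12) did not pass (limma adjusted p = 0.652). Its passage difference was 0.041 (limma adjusted p = 0.829).

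Dbp, the PAR bZIP output gene with large swings in many tissues, varied most of all members, over 1.27 log2. It stood at 12.37 on the wt primary array and 12.28 and 11.96 on those of Wip1Tg, while the secondary arrays read 11.79 and 12.41 for wt and 11.14 for Wip1Tg. The Wip1Tg arrays lay below the wt arrays within each passage, but the 2 wt secondary arrays alone were 0.62 log2 apart. The genotype difference of Dbp was -0.61 (SE 0.241, 95% interval -1.18 to -0.030, limma adjusted p = 0.489), with -0.25 within primary and -0.96 within secondary spheres (interaction -0.70, 95% interval -1.78 to 0.38, limma adjusted p = 0.627). Its passage difference was -0.63 (SE 0.241, 95% interval -1.20 to -0.049, limma adjusted p = 0.0982). Both rest largely on Wip1Tg secondary 1, without which the genotype difference was -0.25 and the passage difference -0.27. Without wt secondary 2 the passage difference was -0.81 and passed (limma adjusted p = 0.0251), and without wt primary 1 it was -0.98 and the genotype difference -0.96. With arrays scaled by their medians the passage difference of Dbp was -0.91 and passed (limma adjusted p = 0.00675).

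Tef, the other PAR bZIP gene, was at 9.17 on the wt primary array and 9.47 and 9.13 on those of Wip1Tg, while the secondary arrays read 9.62 and 9.75 for wt and 9.53 for Wip1Tg. The secondary arrays all stood above the primary ones, by 0.37 in the fit (SE 0.149, 95% interval 0.016 to 0.73, limma adjusted p = 0.108). Between genotypes Tef differed by -0.013 (95% interval -0.37 to 0.34, limma adjusted p = 0.984).

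**Figure D3:**
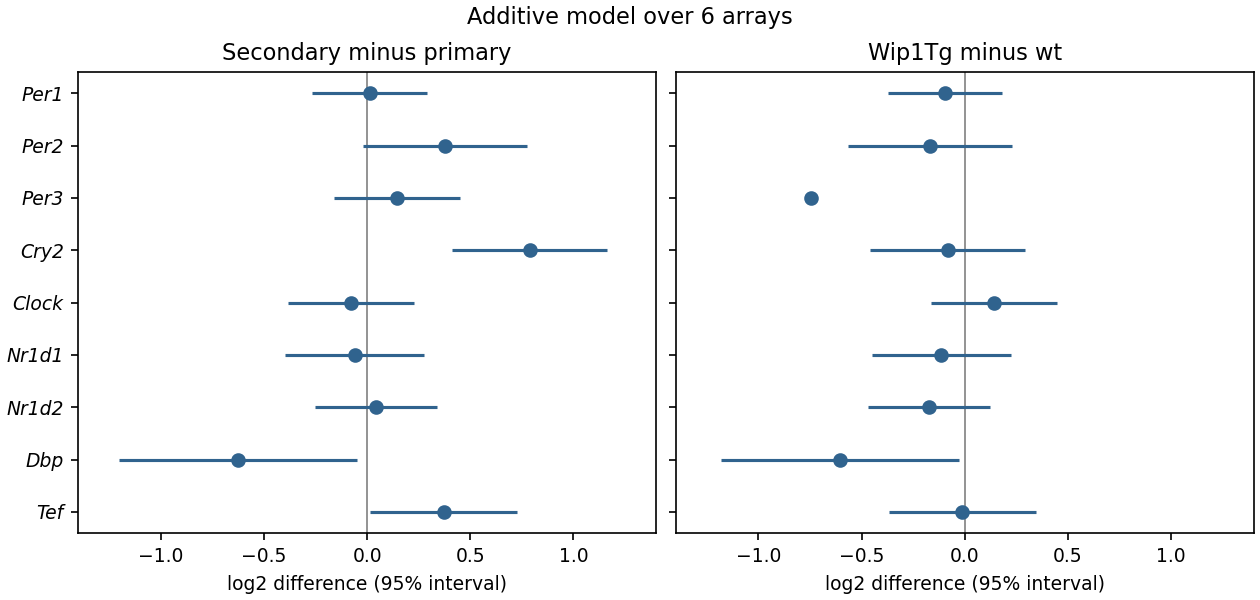
Fitted log2 differences of the 9 clock genes from a model with genotype and passage over 6 arrays, secondary minus primary on the left and Wip1Tg minus wt on the right. Points are estimates and lines are 95% intervals without adjustment for multiple tests, and no interval is drawn for Per3 between genotypes (-0.74), which was known when the set was chosen. The passage interval of Cry2 (0.41 to 1.16) lies above 0.

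For genotype 8 of the 9 members had a negative difference, with a median of -0.11 against 0.008 over all features, and Clock was the exception. Limma called 0 of the 12755 features for genotype (0%), hence no member. Leaving out Per3, which is not tested here, 1 of the other 8 members, Dbp, had an unadjusted p under 0.05, against 10.1% of all features. The 3 Wip1Tg arrays lay below all 3 wt arrays for 2 members, Per3 and Nr1d2, against 3.68% of features. Within each passage the Wip1Tg arrays lay below the wt arrays for 3 members, Per3, Nr1d2 and Dbp, against 14.1%. Nothing is read from these counts, since Per3 was known when the set was drawn up. Limma's interaction term was past the threshold for 0 features (0%) and at an unadjusted p under 0.05 for 0 of the 9 members, against 9.38% of features. Marker genes differed between genotypes as well, none past the adjusted threshold. All 4 kept oligodendrocyte markers had negative differences (Wip1Tg minus wt), of -1.76 log2 for Mbp and -1.71 for Mag, with sums of 3970 to 4671 on the wt arrays and 2141 to 2831 on the Wip1Tg arrays. All 8 astrocyte markers had negative differences, Gfap with -0.84. The kept ependymal markers differed in sign, with Tppp3 at -1.13, Foxj1 at -0.52 and Rsph1 at 0.080. The 4 proliferation genes stood higher in Wip1Tg spheres of both passages. Their summed intensity was 3480 on wt primary 1, 5047 and 5600 on Wip1Tg primary 1 and 2, 1986 and 1386 on wt secondary 1 and 2 and 2917 on Wip1Tg secondary 1. Within a passage, an array with a higher proliferation sum had a lower Dbp signal in every case. Between passages the direction was the other way. Secondary arrays had lower sums (1386 to 2917 against 3480 to 5600) and a lower fitted Dbp level (-0.63 log2, limma adjusted p = 0.0982). The relation within passages is over 3 arrays in each, was noticed in the data, and was not tested. Nor was the part of any marker list in the values of Per3 and Dbp.

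The rest of the clock was read from a list of 25 further genes, of which 18 had a kept probe. For passage 4 of these rose (Arntl, Rora, Id2 and Ppargc1a) and 4 fell (Bhlhe40, Btrc, Noct and Nampt), with a median of -0.32, against 28.1% of all features passing. Limma called none of them for genotype, where 4 had an unadjusted p under 0.05 (Rora, Ciart, Timeless and Nampt), against 10.1% of all features. With arrays scaled by their medians, which put the passage median over all features at -0.24, 4 genes were called as higher and 10 as lower, with 30.3% of all features called. Without Wip1Tg secondary 1, only the rises of Arntl and Ppargc1a were called among the 18, with 10.7% of all features. On the 4 arrays with Xist signal the rises of Rora and Ppargc1a and the fall of Noct were called, with 8.63% of all features. Without eBayes moderation, the rises of Arntl and Ppargc1a were called, with 7.2% of all features.

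Arntl, which encodes the partner of CLOCK, rose. It was at 7.66 on the wt primary array and 7.63 and 7.69 on those of Wip1Tg, while the secondary arrays read 8.50 and 8.46 for wt and 8.68 for Wip1Tg. The secondary arrays were all higher, with replicate pairs 0.065 and 0.047 log2 apart, and the difference was 0.92 (SE 0.116, limma adjusted p = 0.00295). On the 4 arrays with Xist signal it was 0.99 (limma adjusted p = 0.0519). Npas2, a relative of Clock, differed by 0.38 (SE 0.177, limma adjusted p = 0.159). Rora, the ROR receptor that activates Arntl, rose by 0.97 (SE 0.138, limma adjusted p = 0.00448), while Rorb was at -0.55 (SE 0.187, limma adjusted p = 0.0701) with 1 of its 3 probes at 0.11. Ppargc1a, a coactivator of the ROR receptors, rose by 1.41 (SE 0.149, limma adjusted p = 0.0016), from primary arrays at 7.57 (wt), 7.78 and 7.49 (Wip1Tg) to secondary arrays at 9.23 and 8.97 (wt) and 8.93 (Wip1Tg). The REV-ERB genes, whose products act against the ROR receptors on Arntl, did not pass for passage, as given above.

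Bhlhe40 (Dec1), a repressor that competes at E-boxes, fell by 0.60 (SE 0.152, limma adjusted p = 0.0292). That call was lost on leaving out any single array other than wt secondary 2, where the difference closest to 0 was -0.43, without Wip1Tg secondary 1. Noct, a clock-driven phosphatase of NADP cofactors, fell by 1.67 (SE 0.243, limma adjusted p = 0.00485), with its second probe at -1.33. Btrc, a subunit of the ubiquitin ligase that marks PER proteins for decay, fell by 0.73 (SE 0.124, limma adjusted p = 0.00834). Id2, an inhibitor of bHLH factors, rose by 0.87 (SE 0.146, limma adjusted p = 0.00782), with its other probes at 0.69 and 0.44. Ciart (Chrono), a repressor of BMAL1 and CLOCK, was, like Dbp, lowest on Wip1Tg secondary 1. So were other genes of the list, among them Rorb (8.62), Bhlhe40 (10.98) and Btrc (8.74). Ciart was at 8.03 on the wt primary array and 7.91 and 7.55 on those of Wip1Tg. The secondary arrays read 7.45 and 7.81 for wt and 6.99 for Wip1Tg. Its passage difference was -0.57 (SE 0.176, limma adjusted p = 0.0535) and its genotype difference -0.47 (SE 0.176, limma adjusted p = 0.485), and all 3 of its probes were negative for both. Hlf, the third PAR bZIP gene, and Bhlhe41 were not kept, and Nfil3, the repressor at D-boxes, was not analysed here.

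**Figure D4:**
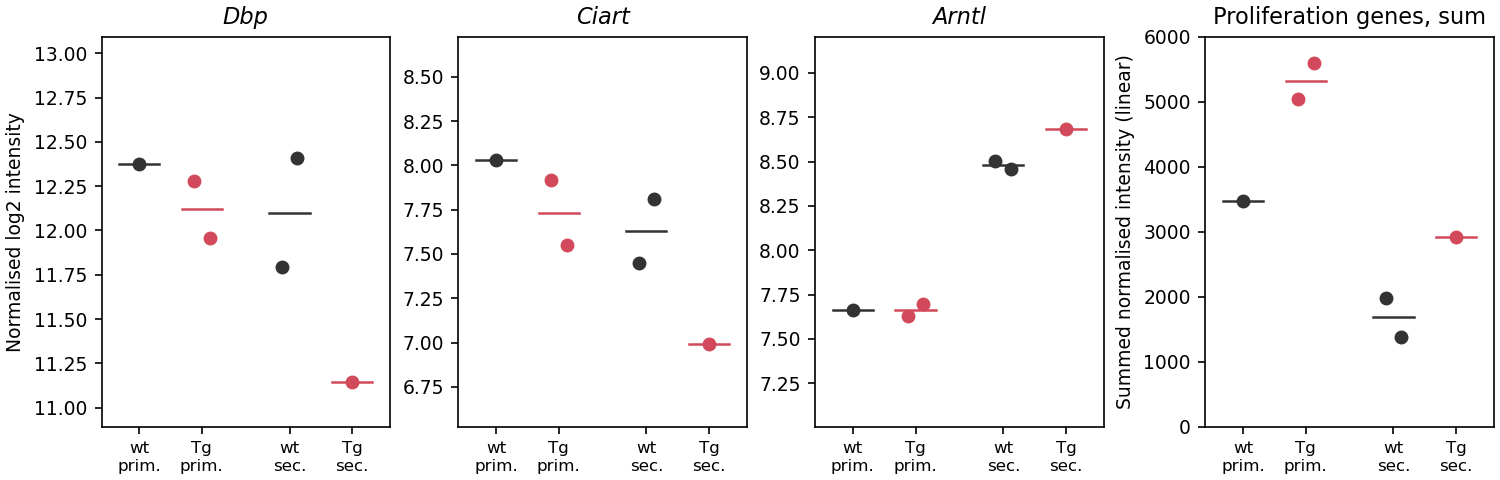
Normalised log2 intensity of Dbp, Ciart and Arntl, and the summed linear normalised intensity of 4 proliferation genes (Top2a, Mcm2, Cdc20 and Rrm2), by group, with points for arrays and bars for group means. Dbp and Ciart are lowest on Wip1Tg secondary 1 (11.14 and 6.99), Arntl is higher on all 3 secondary arrays (8.46 to 8.68 against 7.63 to 7.69), and within each passage the proliferation sum is higher in Wip1Tg spheres.

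The genes with the profile most like that of Per3 were sought outside the set. By root-mean-square difference between the centred log2 values of the 6 arrays, the nearest of 10158 named genes were Cyp46a1 (0.0923), Slc36a2 (0.139), Cd82 (0.155), Ficd (0.156), Ifitm6 (0.169) and Zdhhc17 (0.173). Each was lower on all 3 Wip1Tg arrays than on all 3 wt arrays. This follows from choosing genes by their likeness to Per3, so nothing is read from it. Cd82, which like Per3 was above background on all 6 arrays, was at 7.36 on the wt primary array and 6.86 and 6.86 on those of Wip1Tg, while the secondary arrays read 8.06 and 7.44 for wt and 6.98 for Wip1Tg. Cyp46a1 and Slc36a2 were above background on the 3 wt arrays only, so they were kept only through the group where they were higher.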

How the data were processed

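Per the file headers, 45281 probes on 6 arrays each carry an unnormalised linear intensity and a detection p-value in the deposited table. The deposited value table holds intensities that the authors had quantile normalized, judged from equal column medians (161.57), means and maxima. The scanner software is not given in the sources used here. Intensities were corrected and normalized with neqc of limma 3.58.1 in R 4.3.3 (offset 16, quantiles, log2). Kept were the 18274 probes that passed a detection p of 0.05 on 3 or more arrays, and the brightest kept probe stood for a gene, giving 12755 features (10167 named genes). Symbols are those of the platform annotation (34885 probes with 1, 18 with several, 10378 with none). They were updated to the RefSeq symbol of the same gene identifier where there was one.

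An additive limma model of genotype and passage (3 residual degrees of freedom), and one with their interaction (2), were fitted over all features with eBayes and Benjamini-Hochberg adjustment at 0.05. For groups of 1 array, the interaction model borrows its spread from the groups with replicates. The passage term of the additive fit was tested on simulated data. The number of arrays limits the precision. All arrays were on 1 beadchip, so no batch could be tested. The array names end in A to C for primary and in D to F for secondary spheres. Any effect of array position thus cannot be told apart from passage.

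The members, the list of further clock genes and the markers were chosen with earlier results of these data known. Genes named were all members, 9 further clock genes fixed by name, the 4 others of that list with the largest passage differences past the threshold, and the 6 genes nearest to Per3. Timeless and Nampt were named after their values were seen, as parts of counts. Alternatives were other background corrections, scalings, filters, probe rules, moderation, covariates and sets of arrays.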

Additional observations from a re-analysis of the deposited data

How the results depend on the processing

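The count of members past the threshold for passage was 1 (Cry2), with 28.1% of all features passing. It was 0 without eBayes moderation, with 7.2% of all features. As single arrays were left out it ranged from 0 (without Wip1Tg secondary 1, with 10.7% of all features) to 2 (Cry2 and Dbp, without wt secondary 2, with 23.8%). These counts moved along with the share of all features and are not read as a result about the members. With arrays scaled by their medians, 30.3% of all features passed for passage. That scaling moved the median over all features to -0.24 for passage and -0.19 for genotype. The count was again 1, but the member was Dbp (-0.91, limma adjusted p = 0.00675) and Cry2 did not pass (0.45, limma adjusted p = 0.112). Under the same scaling the passage differences of Clock, Per1, Nr1d1 and Nr1d2 were -0.40, -0.32, -0.41 and -0.31. Those of Per2, Tef and Per3 were 0.046, 0.050 and -0.13, and none of these genes passed. The cause of these shifts was not tested. For genotype and interaction the count was 0 under every alternative run, and on 4 arrays, without wt primary 1 or without Wip1Tg secondary 1 the interaction could not be fitted. Over the alternatives the passage difference of Cry2 ran from 0.45 to 1.04, and its call was lost under median scaling, without eBayes moderation, without Wip1Tg secondary 1 (the same fit as within wt spheres) and on the 4 arrays with Xist signal. The genotype difference ran from -0.90 to -0.25 for Per3 and from -0.96 to -0.25 for Dbp, though filters and moderation cannot move an estimate. With 3 arrays per factor level, the 95% intervals for passage reached from 0.28 (Per1) to 0.58 (Dbp) log2 to either side of the estimate. No paired analysis was possible because the only groups that share 2 replicate numbers, Wip1Tg primary and wt secondary, differ in both genotype and passage.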
